A study of Homo sapiens with 9 samples.

Results

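The ZNF genes of chromosome 19 were examined here in K562 cells, a line from a myelogenous leukemia with erythroid features, after knockdown of the RNA helicase DHX34 or of UPF1. The set held every protein-coding gene of chromosome 19 whose symbol starts with ZNF in the annotation, 249 of the 19782 protein-coding genes matched. Membership was decided by symbol, biotype and chromosome, with no measured value. All cells were transfected with siRNA and harvested on day 4. The 3 groups, each of 3 libraries of poly(A)-enriched RNA, were SCR (a nontargeting siRNA pool, the control), DHX34-kd (an siRNA pool against DHX34) and UPF1-kd (siRNA against UPF1). The cells of all groups were the same line, so no untransfected cells enter any comparison. The study describes its replicates as biological, and the labels number them 1 to 3.

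Each library held 73478797 to 103625443 estimated read counts. DHX34 mRNA fell on siRNA treatment against it, from 18.2 to 19.4 TPM in SCR to 9.49, 9.40 and 11 TPM in DHX34-kd, and UPF1 mRNA fell from 46.4 to 51.4 TPM in SCR to 22.9 to 23.2 TPM in UPF1-kd, where TPM is a level corrected for transcript length and scaled to the same sum in each library. The 10 erythroid and progenitor markers looked at, such as GATA1 and TFRC, were detected in every library at 12 TPM or more. Among markers of other blood cells, 7 were at or below 0.21 TPM in every library, and LYZ was at 11.8 to 32.8 TPM. LYZ was higher in DHX34-kd (log2 fold change 0.96), and HBZ, HBE1 and HBG2 fell in UPF1-kd (log2 fold changes -0.91, -1.11 and -0.96). The part of these in the results was not tested. DHX34-kd replicate 3 stood apart: its counts differed from those of the other 2 DHX34-kd libraries by a chi-square of 20.2 and 22.37 per gene, against 5.71 to 9.59 for all other pairs within a group. Counts of members called in DHX34-kd are therefore also given without it.

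C2H2 zinc finger proteins bind DNA through repeated fingers, each folded around a zinc ion and joined to the next by a short conserved linker. Many carry a KRAB domain at the other end, which recruits TRIM28 (KAP1) and through it histone methyltransferases, HP1 proteins and deacetylases, and so represses transcription. Their genes multiplied by tandem duplication, chiefly on chromosome 19, and many of the proteins bind transposable elements. UPF1 is the central helicase of nonsense-mediated decay (NMD), which removes mRNAs with a premature stop codon, and DHX34 is a helicase that acts with it in the assembly of decay complexes.

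The genes lay in 16 clusters separated by gaps over 1 Mb on GRCh38, numbered here along the chromosome, and 228 of the 249 were in the 7 clusters with at least 15 genes. The plus strand held 134 and the minus strand 115. For each gene 1 coding transcript was read, the reference transcript marked MANE Select or, where there was none, the longest coding one. Of these genes, 209 encoded a KRAB A box by a pattern of 14 positions (at least 10 matched), 39 did not, and 1 had no coding transcript to translate. The pattern can miss divergent boxes, so a gene without a match may still carry one. The median number of fingers was 12, with a range of 0 to 36. In 216 members at least 80% of the coding sequence lay in the last exon, which in these genes encodes the fingers.

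This shared ancestry is visible in the coding sequences and bears on how reads can be assigned. The word below was held by 34 of 248 coding sequences (13.7%), more than any other word of 30 bases apart from 7 overlapping ones that tie with it. Its 15 bases in capitals are the codons of the linker between fingers. Under it stand the closest windows in the 5 members with the largest rise in UPF1-kd among those called with a mean of at least 1 CPM, and in the 5 that fell, where capitals mark every base that differs from the shared word. All are read from GRCh38 transcripts on the coding strand.
Shared word: ACTGGAGAGAAACCCtacaaatgtgaagaa
ZNF527 (chr19:37389358-37389387, plus strand): acAggagagaaaccctTcaaatgtAGTgaa
ZNF677 (chr19:53237674-53237703, minus strand): actggagagaaaccTtacaaatgtAaTgaa
ZNF44 (chr19:12273400-12273429, minus strand): actggagagaaaccctacaaatgtAaaCaa
ZNF528 (chr19:52415894-52415923, plus strand): actggTgagaaaccTtacaaatgtgaagaa
ZNF383 (chr19:37243149-37243178, plus strand): acAggTgagaaaccctaTGaatgtAaGgaa
ZNF524 (chr19:55602521-55602550, plus strand): TcAgAGCTgaaGccGCacCaGtgCAaGgTT
ZNF296 (chr19:45071775-45071804, minus strand): acCggGgagCGCccctacaCCtgtgaGTTC
ZNF865 (chr19:55614357-55614386, plus strand): TcGggGgagaGGccctacGaatgCgGCgTC
ZNF574 (chr19:42080242-42080271, plus strand): acAggagagCGGccctacCGGtgtgGGgaC
ZNF787 (chr19:56088710-56088739, minus strand): acGggCgagaaGccctacaCCtgCCCCgaC

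The 5 members that rose differed from the shared word by 2 to 6 bases, and the 5 that fell by 10 to 16. Over all members with a coding sequence, the median difference of the closest window was 4 bases in those with a KRAB A box and 10 in those without. Of the 34 members holding the exact word, 28 had enough counts for a test, and 9 of these rose and 0 fell in UPF1-kd, with a median log2 fold change of 0.28. Of all genes tested 12.4% rose and 12.9% fell, and of all members tested 15.2% and 2.16%. Sequence shared beyond such words was measured with words of 31 bases, the length at which the mapping index looks for matches by default. A median of 87.4% of the words of a member's transcripts occurred in no other gene. In 14 members under 50% did, and reads of these can be divided between copies. ZNF417 and ZNF587, a pair that represses endogenous retroviruses, lay near this limit with 50.7% and 49.9% unique words. Of all members 3 are readthrough genes, which join neighbouring genes and share sequence with them. Of these, ZNF625-ZNF20 (1.5% unique words) and ZNF559-ZNF177 (26.4%) are already counted in the 14.

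The members were weakly expressed in SCR, with a median of 1.76 TPM, and the 10 highest carried 33.0% of their summed level. ZNF146, which encodes little besides fingers, was highest at 60.2, 66.1 and 64.2 TPM in the 3 SCR libraries. ZNF787 (55.6 to 57.0 TPM) and ZNF428 (52.6 to 56.9 TPM) followed, and these 2 overlapped. The other 7 were ZNF544, ZNF580, ZNF581, ZNF444, ZNF584, ZNF414 and ZNF480, at up to 36.1 TPM. Of these 10, ZNF544, ZNF584 and ZNF480 had a KRAB A box.
Members without the box had a median of 5.42 TPM in SCR and those with it 1.51 TPM. No count was found in any library for ZNF536, a gene of the nervous system, and ZNF729. Over the 9 libraries 81 members had a mean under 1 TPM and 30 a mean of at least 10 TPM.

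More members were found at 1 TPM or above after either knockdown, 151 to 154 in SCR libraries, 162 to 166 in DHX34-kd and 169 to 178 in UPF1-kd. Their summed level was 1089.3 ± 16.8 TPM in SCR, 1281.2 ± 53.9 in DHX34-kd and 1350.6 ± 10.1 in UPF1-kd (SD, n = 3 each), and neither knockdown overlapped SCR. The TPM scale itself moved: the median log2 TPM ratio to SCR over all genes tested was 0.17 in DHX34-kd and 0.21 in UPF1-kd, beside 0.28 and 0.40 over the members tested. Fold changes below therefore come from read counts scaled to library size by TMM (CPM, not corrected for length), on which the median log2 fold change of all genes was 0.018 and 0.016.

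The comparison of UPF1-kd with SCR asked which members responded to loss of the core NMD factor. Of 231 members with enough counts for the test, 35 rose (15.2%) and 5 fell (2.16%) at an adjusted p of at most 0.005, the threshold the study used, by edgeR's quasi-likelihood test. The background was 12.4% of the 17184 genes tested called up and 12.9% called down, 25.3% in all, so the share of members that rose was near that of all genes while the share that fell was lower. At an adjusted p of at most 0.05, 78 rose and 11 fell, beside 20.5% and 19.7% of all genes. The median log2 fold change was 0.23 over members, and 181 of 231 were above 0. The groups did not overlap, with UPF1-kd higher, for 112 members (48.5%, beside 26.9% of all genes) and, with UPF1-kd lower, for 18 (7.79%, beside 23.6%). In all 40 called members the libraries of the groups were separate. With leaving out 1 library in turn, 24 to 31 members rose and 4 to 6 fell, and calls over all genes are not given for these fits.
On counts scaled by transcript length the rises were 15, and over all genes they were 1332 of 17238, beside 2131 of 17184 without this scaling. The 18 members left out had a mean of at most 0.0805 CPM.

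The rises were small. They ranged from 0.23 to 1.2 on the log2 scale, with a median of 0.52, and 4 reached 1. ZNF527 was at 0.883, 0.898 and 0.772 CPM in SCR and at 1.99, 1.75 and 1.91 CPM in UPF1-kd. This was 1.14 on the log2 scale, with SE 0.177 and adjusted p = 0.000268 by edgeR. ZNF677 went from 1.03, 1.04 and 0.980 CPM to 2.15, 2.57 and 2.01 CPM, a log2 fold change of 1.14 (SE 0.169). Both were among the scarcest members that passed. Each remained called with any library left out, but neither was called on length-scaled counts.
ZNF44 stood at 2.14, 3.04 and 2.58 CPM in SCR and at 4.83, 5.63 and 5.62 CPM in UPF1-kd, a log2 difference of 1.05 (SE 0.138, edgeR adjusted p = 7.71e-05). ZNF383 was tighter, with 5.63, 5.70 and 5.83 CPM against 11.4, 10.6 and 11.1 CPM. The change was 0.94 on the log2 scale with an SE of 0.0714 (edgeR adjusted p = 1.25e-06), the lowest adjusted p of the 10 rises named. ZNF493 rose from 7.28, 8.01 and 7.0 CPM to 13.8, 12.7 and 14 CPM (log2 fold change 0.86, SE 0.0761). In ZNF383 and ZNF493 the change was several times the spread within either group, and both were called on length-scaled counts.
ZNF585B (log2 fold change 0.81), ZNF738 (0.78) and ZNF347 (0.60) also rose and were called with each library left out. ZNF528 (0.97, mean 1.17 CPM) was called in 1 of 6 such fits. Neither ZNF347 nor ZNF528 was called on length-scaled counts.

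**Figure D1:**
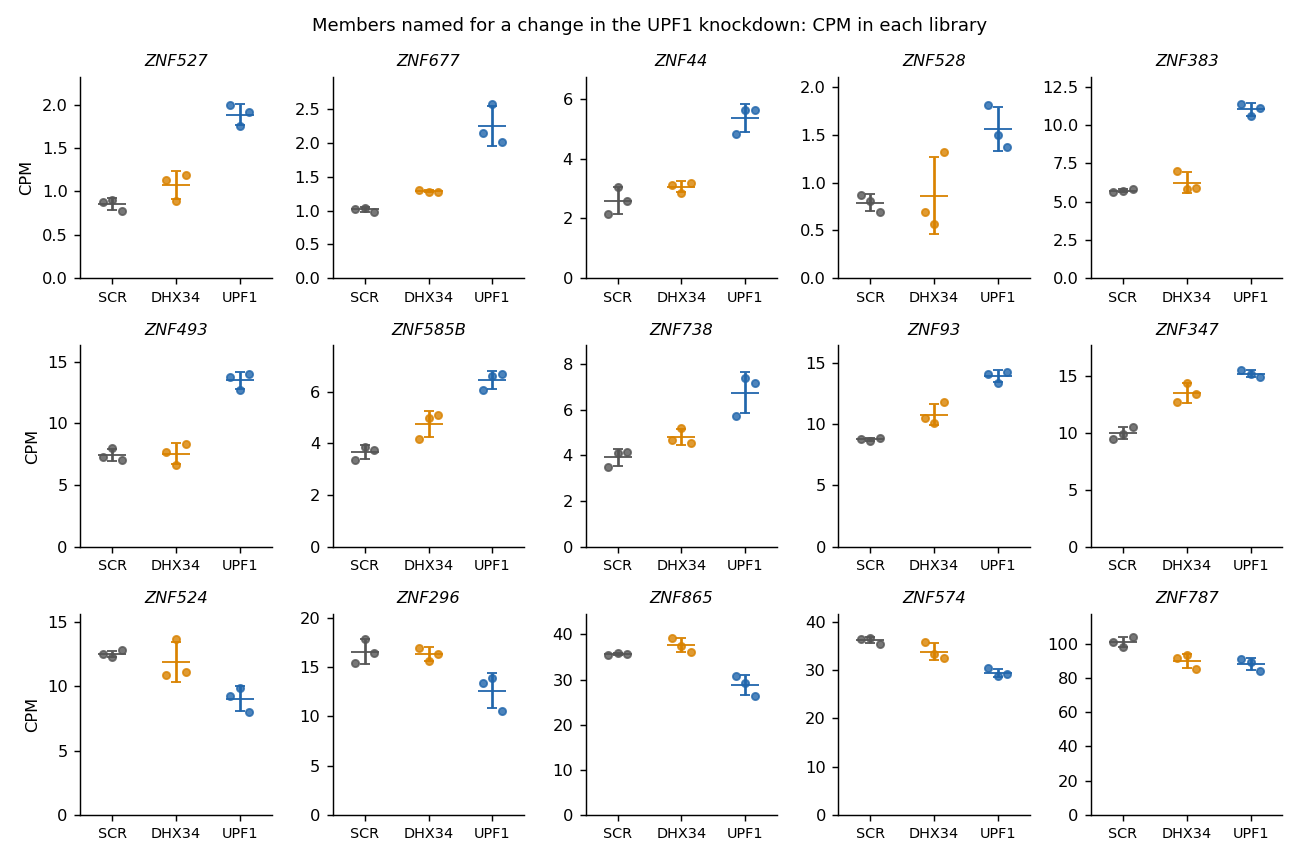
CPM (vertical axis, from 0) in each library for the 10 members with the largest rises among those with a mean of at least 1 CPM (ZNF331, at 0.825 CPM, is left out) and the 5 that fell in the UPF1 knockdown, by group; points are libraries, the short line is the mean and the bar 1 SD (n = 3). In all 15 panels the UPF1-kd points lie clear of the SCR points, and for ZNF44, ZNF383 and ZNF493 the DHX34-kd points lie at or near the level of SCR.

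Members of known role behaved unequally. ZNF93, which represses LINE-1 elements, was at 8.76, 8.65 and 8.91 CPM in SCR and at 14.1, 13.4 and 14.3 CPM in UPF1-kd. This rise was 0.66 on the log2 scale (SE 0.0625, edgeR adjusted p = 6.39e-06). ZNF91, the repressor of SVA elements, was at 2.63 to 3.38 CPM in SCR and 3.27 to 3.54 CPM in UPF1-kd and did not pass (log2 fold change 0.23, SE 0.134, edgeR adjusted p = 0.211).
ZNF274, which brings the methyltransferase SETDB1 to the 3' ends of ZNF genes, went from 31.5, 30.9 and 32.9 CPM to 37.9, 40.9 and 40.4 CPM (log2 fold change 0.32, SE 0.0435, edgeR adjusted p = 0.00011). ZNF331, an imprinted gene, rose by 1.20 on the log2 scale (SE 0.259, edgeR adjusted p = 0.00266) at a mean of 0.825 CPM, and was called in 1 of the 6 fits without a library. ZNF649, a repressor of growth factor signalling, rose by 0.44 (SE 0.0947, edgeR adjusted p = 0.00257), also called in 1 of 6.
ZNF808, which acts in pancreas development, had a log2 fold change of 0.31 (SE 0.079) and ZNF587 one of 0.22 (SE 0.0608), with edgeR adjusted p = 0.00828 and 0.0109. ZNF417 (0.27), ZNF224 (0.27), ZNF57 (0.04) and ZNF358 (-0.13) did not pass either. ZNF382, described as a tumor suppressor, was at 0.104 to 0.356 CPM in SCR and 0.131 to 0.289 CPM in UPF1-kd, and its log2 fold change of -0.04 had an SE of 0.52, so a change was not detectable at this depth.

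The 5 members that fell were abundant and lacked a KRAB A box by the pattern. ZNF524 was at 12.5, 12.3 and 12.8 CPM in SCR and at 9.26, 9.88 and 8.0 CPM in UPF1-kd (log2 fold change -0.48, SE 0.0799, edgeR adjusted p = 0.000459). ZNF865 went from 35.4, 35.8 and 35.7 CPM to 30.7, 29.3 and 26.4 CPM (-0.32, SE 0.0541). ZNF574 went from 36.4, 36.6 and 35.4 CPM to 30.3, 28.7 and 29.1 CPM (-0.31, SE 0.0425). These falls were modest but clear of the spread within groups.
ZNF787, the second most abundant member, fell by 0.20 on the log2 scale (SE 0.0366), and all its UPF1-kd libraries (84.2 to 90.8 CPM) lay under the lowest SCR library (98.2 CPM). ZNF296 fell by 0.40 (SE 0.0951, edgeR adjusted p = 0.00498) and was called in 1 of the 6 fits without a library.

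By class, 30 of 194 members with a KRAB A box rose and 0 fell in UPF1-kd, with a median log2 fold change of 0.25, while 5 of 36 without it rose and 5 fell, with a median of -0.11. Among the KRAB members 167 of 194 were above 0, and among the others 13 of 36. The 5 rises without the box were ZNF83, ZNF180, ZNF260, ZNF473, a component of histone pre-mRNA processing, and ZNF714. Classes differed in base composition as well: the median GC content of the transcripts, weighted by their level, was 44.6% with the box and 61.7% without.
Sorted by GC content, 24 of 116 members under 45% rose and 0 fell. Between 45% and 55% 11 of 89 rose and 0 fell, and at 55% or more 0 of 26 rose and 5 fell. The median log2 fold changes were 0.27, 0.26 and -0.14. Over all protein-coding genes the 3 medians were 0.00, 0.02 and -0.02, 13.4%, 14.7% and 12.3% rose, and 15.4%, 16.1% and 17.2% fell. The 5 falls of 26 members (19.2%) were thus near the share of all protein-coding genes at that GC content. In a split chosen after the data were seen, 15 members without the box lay under 55% GC, and of these 5 rose and 0 fell (median 0.27), while 21 lay at 55% or more, and of these 0 rose and 5 fell (median -0.20). Of the members with the box, 189 lay under 55% (30 rose, median 0.26) and 5 above it (0 called, median -0.04). The medians of the classes thus lay near each other under 55% GC, where only 15 members lacked the box. Too few members with the box lie above 55% for a comparison there. The parts of the box and of GC content in the class difference were not tested.
After a trend of fold change on length and GC content was removed from the counts of all genes, 27 members rose and 8 fell, and the medians of the classes were 0.19 and -0.16. Calls over all 17184 genes moved as well, from 2131 up and 2214 down to 1501 up and 3233 down. The median log2 fold change of all genes became -0.054.

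**Figure D2:**
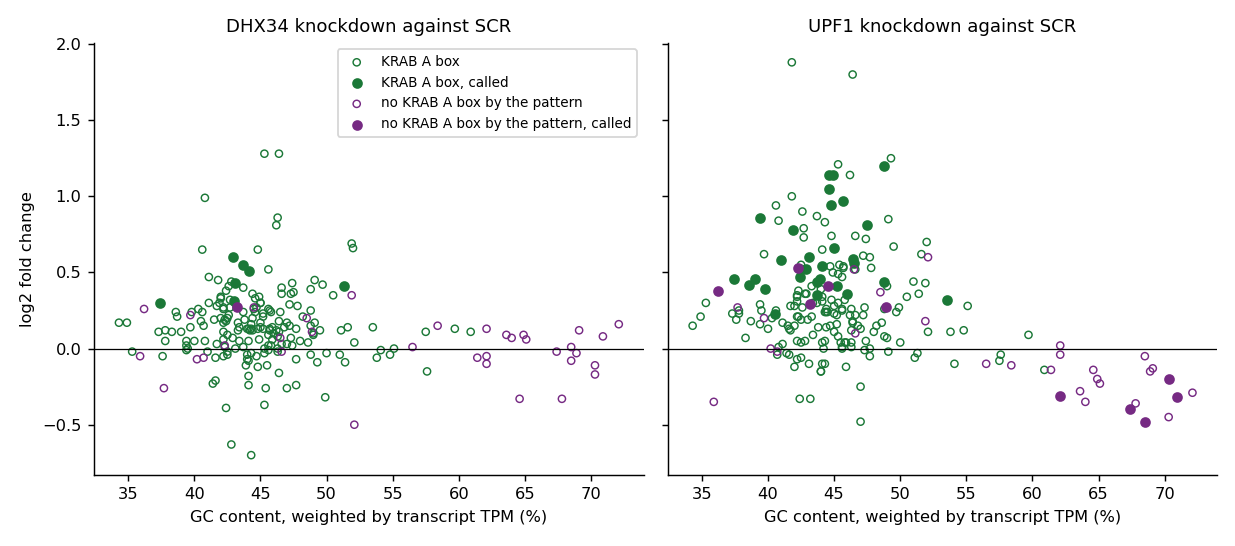
Log2 fold change against SCR (vertical axis) and GC content of each member's transcripts, weighted by their TPM (horizontal axis, percent), for the DHX34 knockdown (left) and the UPF1 knockdown (right); each point is 1 member tested, green with and purple without a KRAB A box, filled where called. In the right panel the 35 filled points above 0 lie under 55% GC and the 5 below 0 lie above it.

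Along the chromosome the rises were spread over 7 clusters. Cluster 15 (chr19:51571283-53580269) held 12 of them among 38 members tested, and all 38 had a fold change above 0, with a median of 0.33 on the log2 scale. Cluster 5 (chr19:19668796-24129968, next to the centromere) held 10 among 31, median 0.27, and cluster 9 (chr19:36182276-37817300) 6 among 26, median 0.33. Cluster 16, at the end of the long arm, had 3 rises and 3 falls among 55 and a median of 0.12, and cluster 2 had 0 of 15 called.
Other protein-coding genes inside these spans, with symbols not starting with Z, were also counted. Few could be tested where most rises lay: 1 in cluster 5, 0 in cluster 9 and 4 in cluster 15. Of 85 other protein-coding genes lying within the clusters and tested, 4 rose and 18 fell, with a median of -0.07. Of 849 other protein-coding genes of chromosome 19, 68 rose (8.01%) and 197 fell (23.2%). ZNF genes on other chromosomes gave 34 rises and 14 falls among 228, 14.9% and 6.14%, with a median of 0.10, a share of rises near that of the chromosome 19 members.

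**Figure D3:**
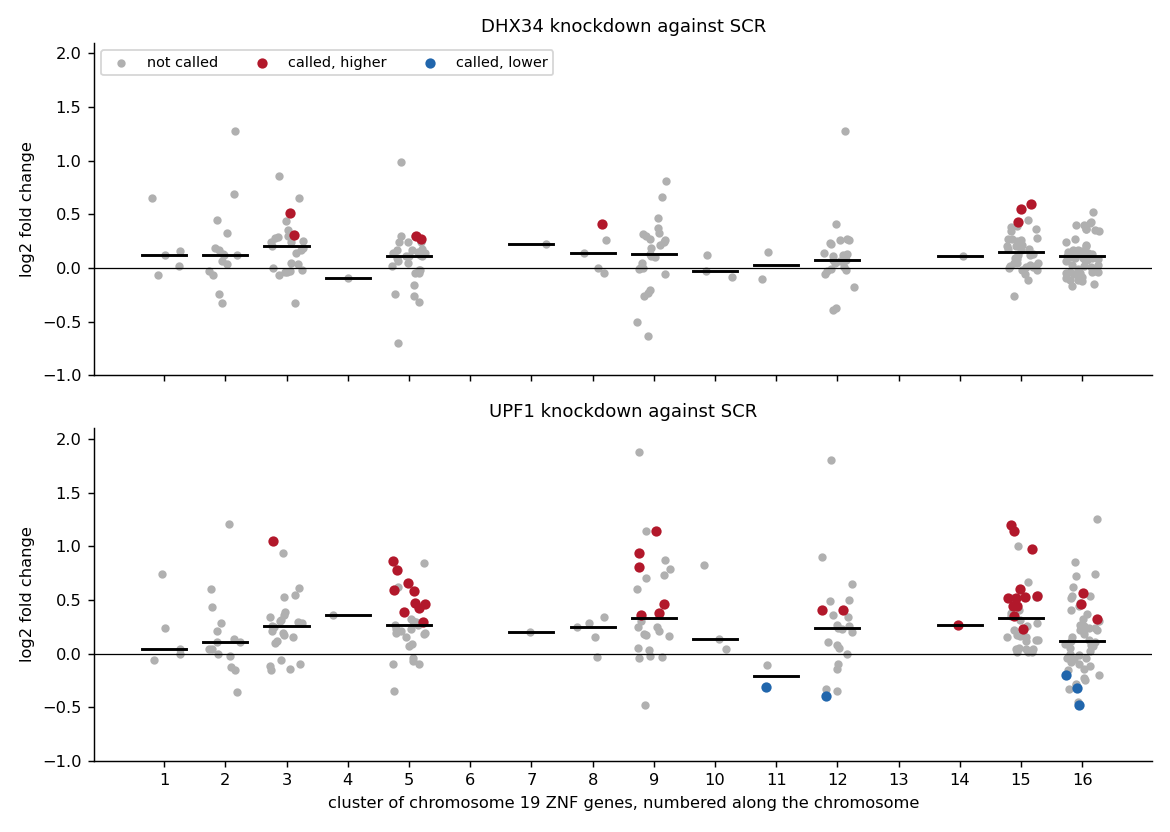
Log2 fold change against SCR (vertical axis) of every member tested, by chromosomal cluster (horizontal axis, numbered along chromosome 19), for the DHX34 knockdown (top) and the UPF1 knockdown (bottom); red and blue points are called higher and lower, grey points are not called, and the line is the median of the cluster. Clusters 5, 9 and 15 hold 28 of the 35 red points in the bottom panel, and no tested member lies in clusters 6 and 13.

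For DHX34-kd against SCR, the question was whether loss of DHX34 touched the same family. Of 230 members tested, 8 rose (3.48%) and 0 fell, beside 5.54% and 4.86% (10.4% in all) of the 17004 genes tested. A smaller share of members than of genes at large was thus called. Members were also scarcer, with a median of 4.59 CPM beside 11.9 CPM over all genes tested, and the part of depth in this was not tested. At an unadjusted p under 0.05 by edgeR 49 rose and 4 fell (21.3% and 1.74%, beside 18.9% and 17.8% of all genes), at an adjusted p of at most 0.05 there were 37 and 2 (beside 13.2% and 12.6% of all genes), and DESeq2 called 15 and 2. The median log2 fold change was 0.12, and 167 of 230 were above 0. The groups did not overlap, with DHX34-kd higher, for 62 members (27.0%, beside 21.6% of all genes) and, with DHX34-kd lower, for 4 (1.74%, beside 19.9%).
The 8 calls depended on single libraries. Without SCR replicate 1, 2 or 3 there were 0, 0 and 1 rises, without DHX34-kd replicate 1, 2 or 3 there were 2, 1 and 6. Calls over all genes are not given for these fits or for DESeq2. Whether members lost or gained more calls there than genes at large thus cannot be told. On length-scaled counts 0 of the 8 were called, and 1 other member was. Over all 17057 genes 391 rose and 341 fell there, beside 942 and 826 of 17004 without this scaling. After the trend on length and GC content was removed, 6 members rose and 4 fell, beside 494 and 1159 of all 17004 genes.

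The 8 were ZNF841, ZNF649, ZNF564, ZNF347, ZNF792, ZNF440, ZNF100 and ZNF714, with log2 fold changes of 0.27 to 0.60. ZNF841 was at 4.98, 4.79 and 4.33 CPM in SCR and at 6.50, 7.25 and 7.63 CPM in DHX34-kd (0.60, SE 0.103, edgeR adjusted p = 0.00189). ZNF792 was at 12.6, 12.9 and 14.1 CPM and at 17.4, 18.2 and 17.2 CPM (0.41, SE 0.065, edgeR adjusted p = 0.00114). Of the words of ZNF792, 100% were unique.
ZNF440 went from 18.8, 18.4 and 19 CPM to 23.4, 22.8 and 23.5 CPM (0.31, SE 0.0491). ZNF564 had 28% unique words, and its rise of 0.51 (SE 0.105, edgeR adjusted p = 0.00488) was lost without any 1 library.
ZNF714, ZNF100, ZNF649, ZNF841 and ZNF347 were called in both knockdowns, which share the SCR libraries. Their log2 fold changes were 0.27 and 0.29, 0.30 and 0.46, 0.55 and 0.44, 0.60 and 0.52, and 0.43 and 0.60 in DHX34-kd and UPF1-kd. The share of all genes called in both is not given, so nothing is read from this overlap. Of the members of known role, ZNF93 (0.30, edgeR adjusted p = 0.0169), ZNF274 (0.14, adjusted p = 0.0461) and ZNF224 (0.41, adjusted p = 0.0232) did not reach 0.005, and ZNF91 (0.11) and ZNF57 (0.02) were further from it. Among members with a KRAB A box 7 of 193 rose and the median was 0.13, and among those without 1 of 36 rose and the median was 0.02. Without DHX34-kd replicate 3 these were 5 rises and 0.12, and 1 rise and 0.01.

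**Figure D4:**
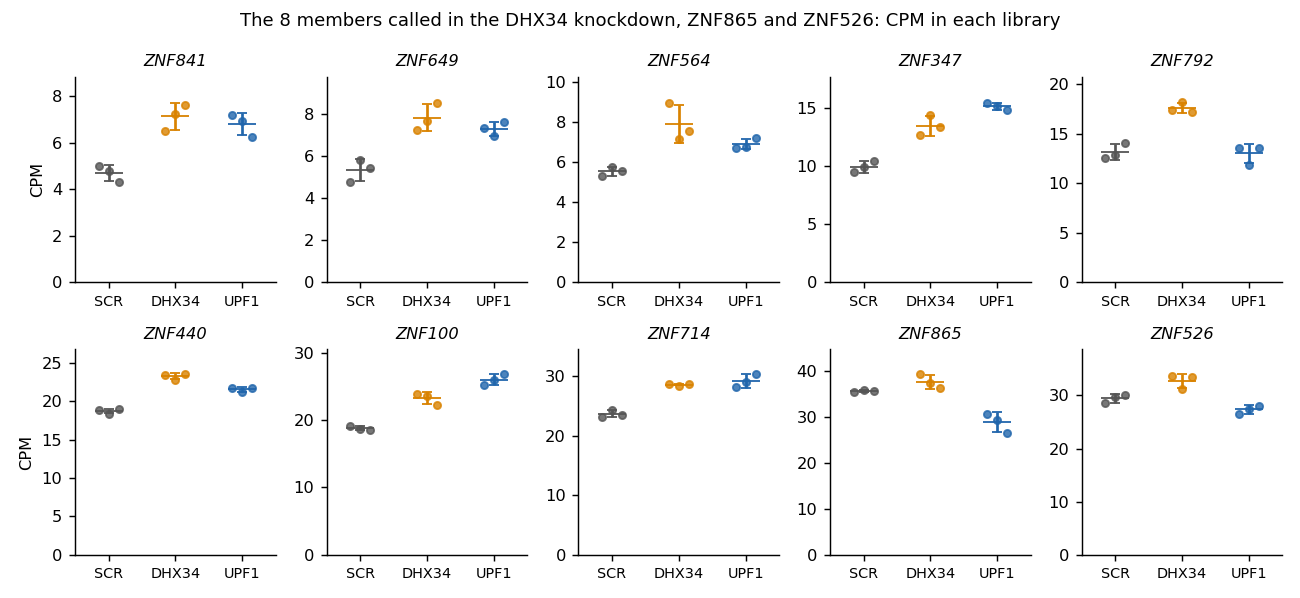
CPM (vertical axis, from 0) in each library for the 8 members called in the DHX34 knockdown and for ZNF865 and ZNF526; points are libraries, the short line is the mean and the bar 1 SD (n = 3). ZNF792 is higher in DHX34-kd than in both other groups. The means of ZNF347 and ZNF100 are higher still in UPF1-kd, but neither was called between the knockdowns.

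The knockdowns were also compared directly, without SCR, to test where they differ. Of 231 members, 14 were higher in UPF1-kd than in DHX34-kd and 3 lower, 6.06% and 1.30%, beside 9.89% and 7.47% of the 17435 genes tested. ZNF493 was at 7.67, 6.64 and 8.31 CPM in DHX34-kd against 13.8, 12.7 and 14 CPM in UPF1-kd (0.85, SE 0.0886, edgeR adjusted p = 3.5e-05). ZNF383 stood at 7.02, 5.83 and 5.89 CPM in DHX34-kd against 11.4, 10.6 and 11.1 CPM (0.83, SE 0.0865). For these members and ZNF44 (0.82, SE 0.108) the difference between knockdowns was called with any library left out.
ZNF527 (0.83) and ZNF677 (0.82) were each called in 1 of 6 such fits. Lower in UPF1-kd were ZNF792 (-0.42, SE 0.0685, edgeR adjusted p = 0.00083), ZNF865 (-0.37, SE 0.0583) and ZNF526 (-0.25, SE 0.047). ZNF792 and ZNF865 were called with any library left out, but neither they nor ZNF44 were called on length-scaled counts. ZNF792 was at 13.6, 11.9 and 13.6 CPM in UPF1-kd, the range of SCR, while ZNF865 was at 39.2, 37.4 and 36.2 CPM in DHX34-kd, above the 3 SCR libraries but not called against them (log2 fold change 0.08).
Counts without DHX34-kd replicate 3 were 23 higher and 6 lower, and without any other library 7 to 9 and 2 to 3.

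Isoform use, the share of a gene's TPM carried by each transcript, was changed in few members. By limma on log ratios at an adjusted p of at most 0.05, 1 of 149 members was called in DHX34-kd, 4 of 157 in UPF1-kd and 2 of 159 in the direct comparison, beside 1.92%, 10.1% and 6.12% of all genes tested. With the replicate number as a block, 0, 1 and 0 members remained past the threshold. The labels do not state whether the numbers pair the libraries.

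In ZNF30 the share of ZNF30-205, a protein-coding transcript of 696 bases, was 0% in all SCR libraries and 29.5%, 36.6% and 35.3% in UPF1-kd (adjusted p = 0.000662 by limma). The longer ZNF30-202 went the other way, from 36.9%, 24.1% and 37.8% to 0%, 0% and 2.0%. In DHX34-kd the libraries were split, with 0%, 34.6% and 40.8% of ZNF30-205, and replicate 1 resembled SCR. Both transcripts are annotated from nearly the same start (chr19:34926903 and chr19:34926910), and an exact 0 can be the estimator's choice between overlapping transcripts.
ZNF420-208, annotated as an NMD substrate, carried 0% in SCR and 38.1%, 33.4% and 20.6% of the gene's TPM in UPF1-kd (adjusted p = 0.016 by limma). It was at 0%, 6.2% and 0% in DHX34-kd. Over all annotated NMD substrates of ZNF420 together, the log2 ratio to its protein-coding TPM did not pass in UPF1-kd (limma adjusted p = 0.365). This ratio was -4.34, -0.62 and -0.86 in SCR and -0.62, -0.83 and -0.31 in UPF1-kd. In SCR replicates 2 and 3 other annotated NMD substrates of the gene thus already held a similar share. ZNF146-201, the main transcript of the most abundant member, fell from 73.1% to 73.5% in SCR to 66.3% to 67.5% in UPF1-kd (adjusted p = 0.0369 by limma), with tight groups. Without 1 library, 1 to 3 members were called in UPF1-kd, fewest without UPF1-kd replicate 1. ZNF544-214, a short transcript with no coding sequence defined, rose from 1.8%, 2.1% and 2.9% to 7.9%, 7.4% and 5.3% (adjusted p = 0.0456 by limma).
ZNF480-203, another annotated NMD substrate, was the 1 call in DHX34-kd. It was at 0% in SCR and UPF1-kd and at 3.2%, 4.1% and 4.4% in DHX34-kd, with adjusted p = 0.0295 against SCR and 0.0128 against UPF1-kd by limma. Without SCR replicate 1 or DHX34-kd replicate 3, 0 members were called in DHX34-kd. The whole gene did not pass by edgeR (log2 fold change 0.00 and 0.04 in DHX34-kd and UPF1-kd). ZNF584-207 was called in the direct comparison (3.6%, 4.1% and 5.2% in DHX34-kd, 0% in UPF1-kd), yet was at 0%, 10.8% and 0% in SCR.

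**Figure D5:**
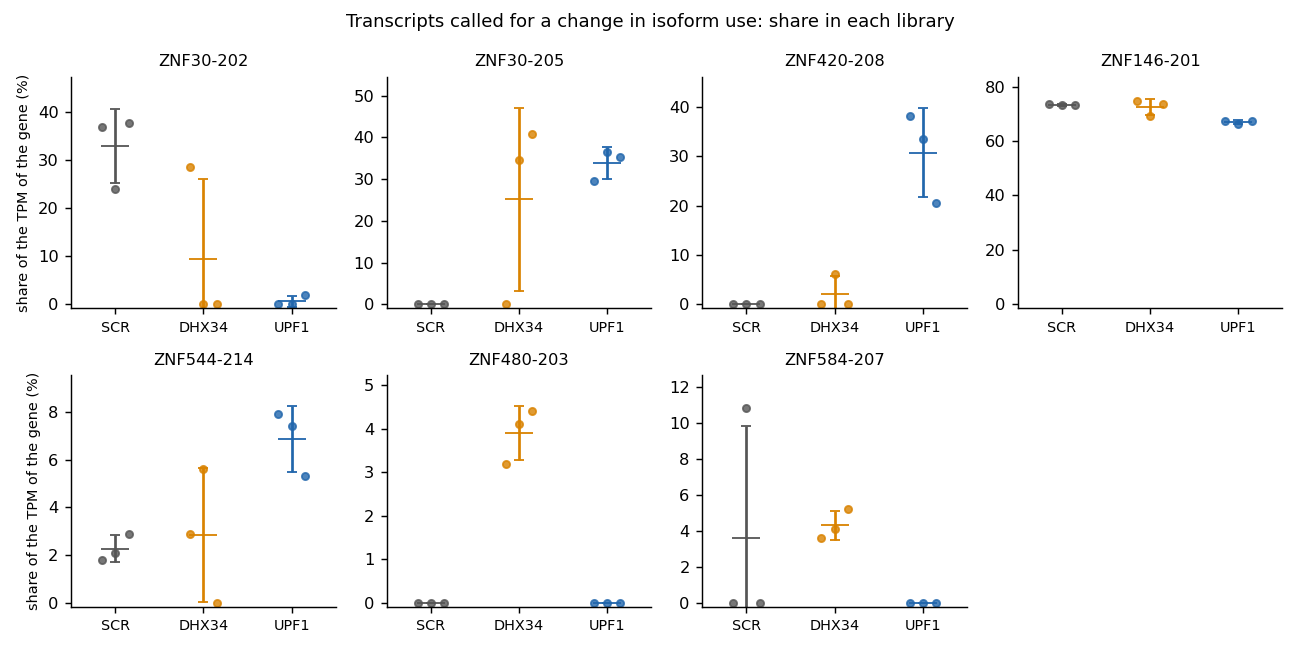
Share of the gene's TPM (vertical axis, percent) carried by each transcript called for a change in isoform use, by group; points are libraries, the short line is the mean and the bar 1 SD (n = 3; bars passing below 0 are cut at the axis). ZNF420-208 lies at 20.6% to 38.1% in UPF1-kd and at 0% in SCR, ZNF480-203 is above 0% in DHX34-kd alone, and the DHX34-kd libraries of ZNF30 are split.

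Transcripts annotated as NMD substrates (144 of the members' 1627) carried 3.17% ± 0.0436 of the members' TPM in SCR, 3.39% ± 0.186 in DHX34-kd and 4.36% ± 0.0954 in UPF1-kd (SD, n = 3 each). UPF1-kd did not overlap the other groups. Over all matched transcripts the same shares were 2.27%, 2.34% and 3.08%. Gene by gene, the log2 ratio of NMD-substrate to protein-coding TPM was raised in 1 of 43 members in UPF1-kd, ZNF573, beside 19% of all genes tested. In DHX34-kd it was raised in 1 of 38, ZNF480, beside 0.408%.
For ZNF573 the ratio was -0.33, -0.47 and -0.65 in SCR and 2.65, 1.31 and 0.77 in UPF1-kd, a difference of 2.06 (SE 0.52, limma adjusted p = 0.0273). It was 0.20, 0.10 and 1.75 in DHX34-kd, where it did not pass. Without SCR replicate 2 or 3 or UPF1-kd replicate 1 or 2, 0 members were called in UPF1-kd. ZNF765 was raised in UPF1-kd over DHX34-kd by 1.41 (SE 0.318, limma adjusted p = 0.0216), and ZNF480 was lower there, a difference of -3.23 (SE 0.385), beside 16.8% of all genes raised and 0.49% lowered.
The median ratio over the members differed from SCR by 0.36 in UPF1-kd, and 27 of 43 were above 0, while all genes tested differed by 0.56. For DHX34-kd it differed by -0.21, with 21 of 38 above 0, and all genes by 0.04. Within SCR the median ratio had an SD of 0.257 to 0.31 over libraries, so the difference in DHX34-kd was within the spread, and that in UPF1-kd was about the size of it, with SCR replicate 3 (-2.10) above UPF1-kd replicate 1 (-2.19).

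The repressor machinery that KRAB proteins act through was read from a list of 32 genes: TRIM28, the HUSH and NuRD complexes, HP1 proteins, and histone and DNA methylation factors. In UPF1-kd 0 rose and 9 fell at the same threshold, with a median log2 fold change of -0.05, beside 12.4% and 12.9% of all genes. TRIM28 fell by 0.23 on the log2 scale (SE 0.0252, edgeR adjusted p = 1.88e-05), CBX3, an HP1 protein, fell by 0.21 and the deacetylase HDAC2 fell by 0.21. MORC2, RBBP4, MTA2 and SUMO2 were also among those that fell. These falls are on CPM, and values on length-scaled counts are not given for this list. In mean TPM, whose scale moved as given above, TRIM28 (401 to 390) and MORC2 (19.7 to 18.8) were lower in UPF1-kd than in SCR. CBX3 (273 to 276), HDAC2 (193 to 199), RBBP4 (334 to 355), MTA2 (110 to 115) and SUMO2 (229 to 237) were higher. In DHX34-kd 3 rose, MORC3 (0.35), CHD3 (0.42) and the methyltransferase EHMT2 (0.18), and 3 fell, among them TRIM28 (-0.18) and SUMO2 (-0.19), beside 5.54% and 4.86% of all genes. These were not recomputed without DHX34-kd replicate 3. Between the knockdowns MTA1 was higher in UPF1-kd (0.20) and CHD3 lower (-0.35).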

How the data were processed

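K562 cells in 3 groups of 3 libraries were measured by poly(A) RNA-seq. The authors quantified transcripts with Salmon against Ensembl cDNA (GRCh38), with GC bias correction, and deposited estimated counts (expected counts, one per transcript, not normalized) and TPM values. The deposited sleuth and SUPPA2 tables hold the authors' own differential expression and splicing comparisons and were not used. Their identifiers were looked up in GENCODE release 44 (198775 of 203027 matched), and counts were summed per gene and rounded. Genes were tested with edgeR 4.0.16 (quasi-likelihood, TMM, filterByExpr with a minimum count of 10, 6 libraries per comparison, with a Benjamini-Hochberg limit of 0.005) and CPM was scaled by TMM over 9 libraries. Isoform use and the NMD ratio were tested with limma 3.58.1 on log2 ratios of TPM with a pseudocount of 0.1, for transcripts averaging 0.1 TPM or more in genes averaging 1 TPM or more, called at an adjusted p of at most 0.05. Such fold changes understate changes of low transcripts. DESeq2 1.42.0 was an alternative. All fits ran over all genes and were tested on simulated data first. Fingers and KRAB boxes were read from translated GENCODE coding sequences.

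Members called with a mean of at least 1 CPM and separate groups were named by size of change (up to 10 rises and 10 falls per knockdown, 5 each in the direct comparison), with the 10 highest in SCR, 13 of known role, those called for isoform use or the NMD ratio, and the corepressor genes called. Values of some marker and corepressor genes are not reported here. ZNF83, ZNF180, ZNF260 and ZNF473 were named after their values were seen. The members and lists were chosen with earlier results of these data known. Deviations of same-numbered libraries of SCR and UPF1-kd from their group means had r = 0.466, 0.114 and 0.297 over genes. SCR replicate 3 and UPF1-kd replicate 2, with unlike numbers, had r = 0.203, so a pairing is not established. A fit with the number as a block was also made, and it left 32 rises and 5 falls in UPF1-kd.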

Additional observations from a re-analysis of the deposited data

How the results depend on the processing

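Alternatives changed 1 choice at a time. Calls over all genes moved as well where they were counted, but are not given for DESeq2 or with 1 library left out. In the direct comparison 1724 higher and 1302 lower became 1013 and 652 on length-scaled counts, and 2345 and 2013 with no filter on low counts. For members up in DHX34-kd (8), an adjusted p of at most 0.05 gave 37, no filter on low counts 17, DESeq2 15, members with at least 90% unique words 1 of 84, length-scaled counts 1, the replicate block 1 and leaving out a library 0 to 6. For members down (0) these gave 2 at 0.05, 2 with no filter, 2 by DESeq2 and 4 with the trend on length and GC content removed, and 0 on leaving out a library. For UPF1-kd (35 up, 5 down) a limit of 0.05 gave 78 and 11, unique-word members 13 up of 85, length-scaled counts 15 up, no filter 8 down, the trend removed 8 down, and leaving out a library 24 to 31 up and 4 to 6 down. In the direct comparison (14 higher, 3 lower) the values were 43 and 12 at 0.05, 26 and 9 with no filter, 22 and 8 by DESeq2, 6 and 0 on length-scaled counts, 8 higher with the trend removed, 4 higher of 85 unique-word members, 6 lower with all 9 libraries in 1 fit, and 7 to 23 and 2 to 6 on leaving out a library.

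Isoform use (1, 4 and 2 members in DHX34-kd, UPF1-kd and the direct comparison) gave 0, 1 and 0 at 0.005, 0, 1 and 0 with the replicate block, 0 in DHX34-kd with a pseudocount of 0.5 TPM, and 0 to 1, 1 to 3 and 1 to 3 on leaving out a library. A raised NMD ratio was called in 0 members of DHX34-kd with that pseudocount, and in 0 to 1 in either knockdown on leaving out a library. The median NMD ratio difference was 0.127 in UPF1-kd with that pseudocount and 0.156 in genes of at least 2 TPM. It ranged from 0.227 to 0.488 in UPF1-kd and from -0.355 to -0.005 in DHX34-kd without 1 library. Corepressor genes at 0.05 numbered 5 up and 9 down in DHX34-kd, 4 up in UPF1-kd, and 2 higher and 6 lower in the direct comparison. The class counts were added after seeing the data: the median of members without a KRAB A box in DHX34-kd (0.016) became -0.103 with the trend removed and -0.01 on length-scaled counts. The cause was not tested.

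The block kept all 19 called values of named members in UPF1-kd against SCR, 1 of 8 in DHX34-kd and 6 of 9 in the direct comparison. Same-numbered libraries of SCR and DHX34-kd did not deviate together (r = -0.066, -0.184 and -0.403), nor did those of the knockdowns. The 36 called values followed for named members (8, 19 and 9 in the 3 comparisons, ZNF331 and ZNF274 not among them) kept their direction in every setting run; over these settings 353 values stayed past the threshold and 115 did not. On length-scaled counts 14 of the 36 stayed past the threshold and 22 did not. Members near 1 CPM are limited by depth.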
